A study of Mus musculus with 3 samples.

Results

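Barrier ceramide and lipoxygenase genes are 10 genes that make, modify or carry the lipids of the outer epidermis: *Sptlc2*, *Cers3*, *Cers4*, *Fa2h*, *Elovl4*, *Pnpla1*, *Alox12b*, *Aloxe3*, *Ugcg* and *Abca12*. They were taken by gene symbol, 10 of the 19927 genes in the deposited matrices, and each reached 50 CPM (a gene's counts scaled to a fixed total per library) in at least 1 library. The 3 single-cell libraries came from dorsal skin of mice at postnatal day (P) 18. There were 2 control libraries from *Vdr* flox/flox mice and 1 library labelled *Vdr* cKO from *Vdr* flox/flox; Krt14cre mice, so all mice carried the floxed *Vdr* alleles and only the last group carried Cre, driven by the *Krt14* promoter of basal and follicle keratinocytes. According to the methods, the skin of 3 male mice was pooled in each library and trypsin freed the cells, which a Nadia droplet device then captured.

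In the outer epidermis, long and very long fatty acids are joined to sphingoid bases to make ceramides, and an acylceramide carrying linoleate is oxidised by lipoxygenases before it is bound to the cornified envelope. Glucosylated ceramides are carried to the surface in lamellar bodies, and inherited loss of several of these genes is known to cause ichthyosis. Sebaceous glands use some of the same elongases and ceramide synthases to make sebum.

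Barcodes were kept as cells when 200 or more genes were detected and mitochondrial counts did not exceed 20%. These cells numbered 1480 and 1658 in controls 1 and 2 and 2622 in the *Vdr* cKO-labelled library, with 18802408, 28690129 and 30954897 counts. Barcodes also found in another library numbered 84, 85 and 60, of which 27, 28 and 20 were kept as cells. *Vdr* was not lower in the *Vdr* cKO-labelled library, where it was 80.8 CPM against 40.7 and 35.9 CPM in the controls; the counts do not show whether they come from the deleted part of the gene. The summed level of 9 basal markers was 2144 and 1549 CPM in the controls and 6102 CPM in the *Vdr* cKO-labelled library, 5 and 3 of 7 inner root sheath markers were at 0 in the controls and none in the other library, and 13 sebaceous markers summed to 4219, 2592 and 2594 CPM. The part of these cell mixtures in the pooled levels below was not tested, and fewer cells of a type and less RNA per cell cannot be told apart in a pooled level.

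The genes fell into groups by the class of cells in which their level was higher. *Cers3*, *Alox12b*, *Aloxe3*, *Pnpla1* and *Abca12* were higher in cells rich in *Lor*, the loricrin gene of granular cells, than in *Krt14*-high *Krt10*-low cells. *Cers4*, *Fa2h* and *Elovl4* were higher in cells rich in sebaceous markers. *Sptlc2* and *Ugcg* passed edgeR's test in neither comparison, while DESeq2 called both higher in *Lor*-high cells (adjusted p = 0.0207 and 0.00389). Between libraries, *Elovl4* was the only one of the 10 genes more than 2-fold apart in the *Vdr* cKO-labelled library.

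The table of RefSeq promoter sequences used here (GRCm38.p6) matched 8 of the 10 genes, and *Fa2h* and *Aloxe3* were not matched. The 250 bases before the RefSeq start are shown for *Cers3*, *Abca12* and *Pnpla1*, which were higher in *Lor*-high cells, and for *Elovl4*, which was higher in sebaceous-list cells than in other cells. Capitals mark letters searched on both strands. They were CCNCNCCC, known from KLF factors, and GGGCGG, the GC box, which can overlap the first.
Cers3, chr7:66743254-66743503, plus strand: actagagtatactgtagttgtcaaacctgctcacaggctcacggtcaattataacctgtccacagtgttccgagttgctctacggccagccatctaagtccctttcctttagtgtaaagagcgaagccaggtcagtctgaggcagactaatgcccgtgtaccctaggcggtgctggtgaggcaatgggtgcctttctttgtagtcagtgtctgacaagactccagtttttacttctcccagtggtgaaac
Abca12, chr1:71414911-71415160, minus strand: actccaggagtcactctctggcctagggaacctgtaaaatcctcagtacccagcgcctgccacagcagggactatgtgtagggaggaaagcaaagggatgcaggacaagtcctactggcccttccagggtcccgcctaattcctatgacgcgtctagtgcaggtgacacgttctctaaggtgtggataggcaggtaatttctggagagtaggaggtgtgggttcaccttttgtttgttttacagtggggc
Pnpla1, chr17:28858161-28858410, plus strand: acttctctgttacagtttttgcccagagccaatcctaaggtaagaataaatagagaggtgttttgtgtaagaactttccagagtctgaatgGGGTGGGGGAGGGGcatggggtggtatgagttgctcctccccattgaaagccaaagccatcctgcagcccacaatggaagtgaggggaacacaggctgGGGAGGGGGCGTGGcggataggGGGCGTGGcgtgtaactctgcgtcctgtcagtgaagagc
Elovl4, chr9:83806306-83806555, minus strand: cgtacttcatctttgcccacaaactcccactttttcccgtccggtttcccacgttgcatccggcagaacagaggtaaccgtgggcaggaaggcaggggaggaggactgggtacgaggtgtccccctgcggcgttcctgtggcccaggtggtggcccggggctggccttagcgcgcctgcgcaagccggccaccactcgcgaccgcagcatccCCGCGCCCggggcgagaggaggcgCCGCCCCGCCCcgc
The *Pnpla1* window held 6 KLF matches, the *Elovl4* window held 2 KLF matches and 2 GC boxes, and the windows of *Cers3* and *Abca12* held neither. The windows of *Alox12b* (5 KLF matches and 3 GC boxes), *Cers4* (5 and 1), *Sptlc2* (1 and 2) and *Ugcg* (1 and 2), which are not shown, held both, so 6 of the 8 windows held the KLF letters and 5 the GC box. Of 32851 promoters of this length, 45.9% held the KLF letters and 32.7% the GC box. The letters TGANTCA (AP-1), AACNGGTT (GRHL), TCACNCCAC (SREBP), CACGTG (E box) and GNTCA repeated after any 4 bases (vitamin D receptor) were found in none of the 8 windows and in 6.75%, 1.79%, 1.05%, 6.02% and 0.548% of all promoters. These are matches of letters, and no factor was measured.

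To ask where each gene was higher, *Lor*-high cells were set against *Krt14*-high *Krt10*-low cells of the same library. *Lor*-high cells were those at or above the 75th percentile of *Lor* CPM (370, 415 and 656 cells in control 1, control 2 and the *Vdr* cKO-labelled library), and the *Krt14*-high *Krt10*-low cells were at or above the 67th percentile for *Krt14*, at or below the 33rd for *Krt10* and not *Lor*-high (133, 156 and 338 cells). As the percentiles were taken in each library, the limits differed, at 428, 197 and 2250 CPM for *Krt14* and 21453, 18161 and 9027 CPM for *Krt10*. For *Lor* they were 16467, 17353 and 13122 CPM. *Lor* was at 48810, 48217 and 30687 CPM in *Lor*-high cells, lowest in the *Vdr* cKO-labelled library. The part of that in the levels of *Lor*-high cells below was not tested. At the controls' median depths of 4190 and 4492.5 counts a cell, very few *Krt14* counts met their limits. Free RNA can give so few counts, so these control cells were not shown to be basal. Within 10% of the *Lor* limit lay 100, 106 and 151 cells, so the class is a range of cells and not a type. Counts were summed for each library and class, and edgeR's quasi-likelihood test with the library as a block was adjusted over 9674 genes. Of all genes tested, 3.93% were higher and 1.43% lower in *Lor*-high cells at an adjusted p under 0.05, and of the 10 genes 5 were higher and 2 lower.

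Among the ceramide genes, *Cers3*, the synthase of ceramides with very long fatty acids, was at 129, 162 and 94.4 CPM in *Lor*-high cells of control 1, control 2 and the *Vdr* cKO-labelled library, and at 19.3, 14.3 and 11.7 CPM in *Krt14*-high *Krt10*-low cells. The ranges did not overlap, and how many of all genes tested did the same was not counted, here and below. Its log2 difference was 3.42 ± 0.64 (SE worked back from edgeR's F statistic over 3 libraries, here and below, edgeR adjusted p = 0.00695). The gene spans chr7:66743504-66823691 (GRCm38). *Pnpla1* (chr17:28858411-28890309), the transacylase that makes acylceramide, was at 66.9, 63.7 and 61.5 CPM in *Lor*-high cells, while the other class held 0, 1 and 10 counts in all. Taking 3 counts in that library as the limit a count of 0 allows, control 1 had at most 1.48 CPM. The fitted log2 difference was 6.58 ± 1.30 (edgeR adjusted p = 0.00922), a size that depends on the few counts of the lower class. Neither class takes in *Krt10*-high *Lor*-low cells, at or above the 67th percentile for *Krt10* and at or below the 33rd for *Lor*. *Pnpla1* was at 71.2, 48.4 and 36.1 CPM there, above *Lor*-high cells in control 1. *Cers3*, at 36.9, 35.6 and 28.4 CPM, was lower there than in *Lor*-high cells of every library, as were *Alox12b*, *Aloxe3* and *Abca12*. That class was not tested. Some classes of the highest 5% of cells by a marker list also lay above *Lor*-high cells. In upper-follicle-list cells *Cers3* was at 169 CPM in control 1, and *Abca12* and *Pnpla1* at 444 and 136 CPM in control 2. In spinous-list cells *Aloxe3* was at 165 CPM in control 2. Granular-list cells had the highest level of *Cers3* and *Alox12b* in all 3 libraries. These classes were not tested either.

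Both lipoxygenases among the 10 genes followed the same direction. *Alox12b*, which acts first on the linoleate of acylceramide, was at 478, 507 and 267 CPM in *Lor*-high cells against 32.1, 32.4 and 28.7 CPM, a log2 difference of 4.03 ± 0.43 (edgeR adjusted p = 0.000128). *Aloxe3*, which turns the product of *Alox12b* into an epoxyalcohol, was at 175, 108 and 84.0 CPM against 11.4, 26.0 and 4.18 CPM, a log2 difference of 3.77 ± 0.74 (edgeR adjusted p = 0.00922). For each gene the lowest *Lor*-high library lay above the highest library of the other class. The genes are neighbours on the plus strand of chromosome 11, with 7873 bases between the end of *Aloxe3* (69125896-69149115) and the start of *Alox12b* (69156989-69169792). *Lor*-high cells held 59.5%, 51.5% and 66.6% of the *Alox12b* counts of the 3 libraries and 44.0%, 40.8% and 58.9% of those of *Aloxe3*. Such shares also depend on the size of the class. The levels over all cells were 176, 212 and 128 CPM for *Alox12b* and 87.2, 56.8 and 45.3 CPM for *Aloxe3*. Each lay below the *Lor*-high level of its library.

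Of the genes for glucosylation and transport, *Abca12* (chr1:71242276-71414910), the transporter that loads lamellar bodies, was at 434, 371 and 203 CPM in *Lor*-high cells and at 148, 204 and 32.6 CPM in the other class. The *Vdr* cKO-labelled library had the lowest value of both classes, and its *Lor*-high level lay just under that of the other class in control 2, so the ranges met across libraries while each library had the higher value in *Lor*-high cells. The log2 difference was 2.01 ± 0.45 (edgeR adjusted p = 0.0184). *Ugcg* (chr4:59189257-59222833), the glucosylceramide synthase, was at 52.6, 166 and 91.4 CPM against 27.7, 17.5 and 16.7 CPM, a log2 difference of 2.55 ± 0.75 (edgeR adjusted p = 0.0736). *Sptlc2* (chr12:87305058-87388355), a subunit of serine palmitoyltransferase, which starts sphingoid base synthesis, was at 109, 60.8 and 42.2 CPM against 20.3, 6.36 and 28.2 CPM, a log2 difference of 2.41 ± 0.88 (edgeR adjusted p = 0.166). Both genes had the higher value in *Lor*-high cells of all 3 libraries and missed the threshold.

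Some calls were lost when 1 library was left out. Without control 2, *Cers3* (log2 difference 3.21, adjusted p = 0.112), *Pnpla1* (6.28, 0.0875) and *Abca12* (2.42, 0.0559) missed edgeR's threshold at differences close to those of the full fit. Without the *Vdr* cKO-labelled library *Aloxe3* (3.29, 0.0734) and *Abca12* (1.52, 0.0912) missed it. *Abca12* also missed it with the same CPM limits in all libraries (1.53, edgeR adjusted p = 0.0826). With each cell thinned to 1000 counts, *Abca12* alone among them passed (log2 difference 1.82, edgeR adjusted p = 0.0107), and the difference of *Alox12b* was 1.32 (0.141).

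**Figure D1:**
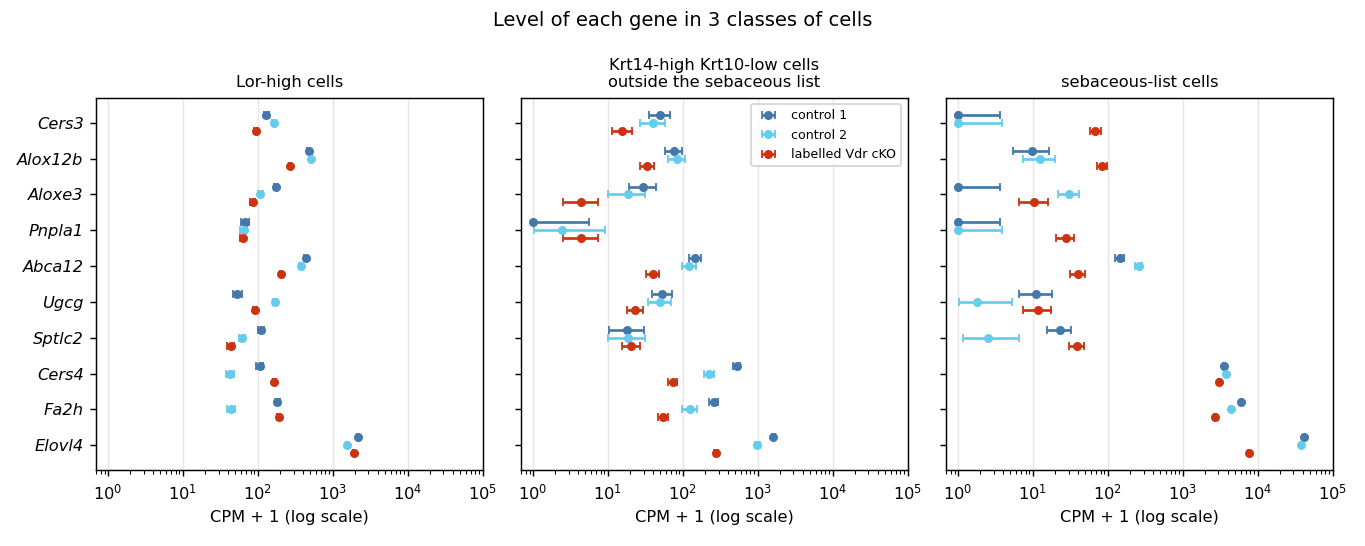
Level of the 10 genes, as CPM + 1 on a log axis, in *Lor*-high cells, in *Krt14*-high *Krt10*-low cells outside the sebaceous list and in sebaceous-list cells of the 3 libraries (points) with 95% Poisson intervals that cover counting error only. *Cers3*, *Alox12b*, *Aloxe3* and *Pnpla1* lie furthest right in *Lor*-high cells and *Cers4*, *Fa2h* and *Elovl4* in sebaceous-list cells. Levels of different genes are not per length and are not to be compared.

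The other direction was taken by *Cers4* (chr8:4493026-4531680), a synthase of ceramides with long fatty acids, and *Fa2h* (chr8:111345135-111393824), which hydroxylates the fatty acid at its second carbon. *Cers4* was at 104, 41.6 and 165 CPM in *Lor*-high cells and at 2574, 2573 and 972 CPM in *Krt14*-high *Krt10*-low cells, a log2 difference of -4.07 ± 0.56 (edgeR adjusted p = 0.000862). *Fa2h* was at 181, 43.0 and 189 CPM against 4180, 2963 and 823 CPM, a log2 difference of -3.96 ± 0.72 (edgeR adjusted p = 0.0149). The call of *Fa2h* was lost without the shared barcodes (adjusted p = 0.0649), at an almost equal difference of -4.06. For *Elovl4* (chr9:83778692-83806277), the elongase that makes fatty acids of the greatest length, the libraries went opposite ways. It was at 2154, 1529 and 1902 CPM in *Lor*-high cells and at 28803, 26442 and 1637 CPM in the other class, a log2 difference of -2.41 ± 1.29 (edgeR adjusted p = 0.540). In the 2 controls alone the difference was -3.62 ± 0.22 (edgeR adjusted p = 2.92e-05).

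The *Krt14*-high *Krt10*-low class was not made of basal cells alone, and the rest of it was not shown to be basal in the controls. Of its cells, 27, 39 and 44 were also sebaceous-list cells, those among the highest 5% of their library by the summed CPM of 13 sebaceous markers with at least 2 of them detected, and these markers summed to 28172, 30592 and 6927 CPM in the class. Without sebaceous-list cells, which was added after the data had been seen, the markers summed to 1729, 1807 and 1605 CPM. Of the 9260 genes then tested, 3.75% were higher and 1.23% lower in *Lor*-high cells, and of the 10 genes 5 were higher and none was lower.

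*Elovl4* turned direction in that comparison. *Krt14*-high *Krt10*-low cells outside the sebaceous list had 1621, 982 and 277 CPM of *Elovl4*, and the log2 difference was 1.45 ± 0.33 (edgeR adjusted p = 0.00154), with the higher value in *Lor*-high cells of all 3 libraries. Ratios within the libraries were 0.39, 0.64 and 2.44 on the log2 scale, the largest in the *Vdr* cKO-labelled library. After thinning, *Elovl4* was detected in a smaller share of these *Krt14*-high *Krt10*-low cells than of cells chosen by immune markers, in every library (below). Its level in them is therefore not told apart from free RNA, and the part of that in the difference was not tested. The differences of *Cers4* (-1.39 ± 0.59, adjusted p = 0.205) and *Fa2h* (-0.38 ± 0.64, 0.879) no longer passed edgeR's test. *Alox12b* (3.09, 5.22e-07), *Aloxe3* (3.58, 0.00469), *Pnpla1* (5.74, 0.00378) and *Abca12* (2.18, 0.000779) still passed, and *Cers3* (2.32, 0.0653) did not.

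**Figure D2:**
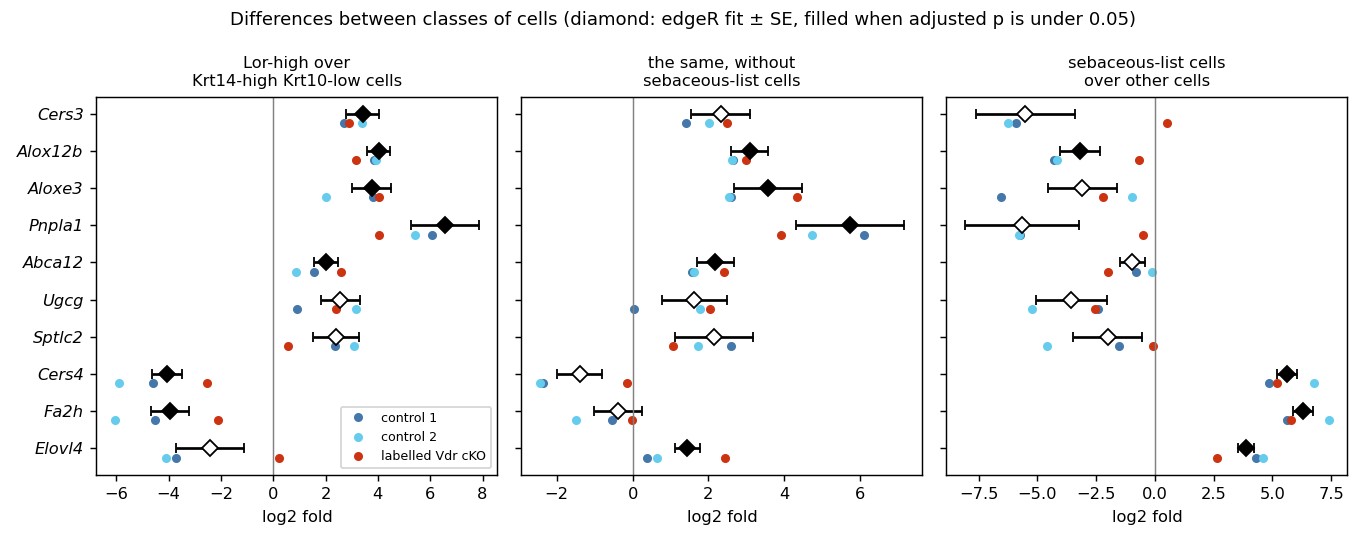
log2 fold of each gene between classes of cells, for *Lor*-high over *Krt14*-high *Krt10*-low cells with and without sebaceous-list cells, and for sebaceous-list cells over all other cells. Diamonds are edgeR fits over 3 libraries, filled at an adjusted p under 0.05, and coloured points are the ratios within each library. Bars are 1 SE worked back from edgeR's F statistic. *Elovl4* goes from -2.41 to 1.45 when sebaceous-list cells are left out.

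To ask which genes lay with sebaceous lipid genes, the 63, 67 and 115 sebaceous-list cells were set against all other cells of their library by the same test over 10988 genes, of which 2.92% were higher and 3.3% lower in sebaceous-list cells. Their median log2 difference was -0.998, or -0.853 with DESeq2 size factors. None of the 10 genes was on the list. *Cers4* was at 3530, 3830 and 3047 CPM in sebaceous-list cells and at 120, 33.7 and 82.7 CPM in other cells, a log2 difference of 5.62 ± 0.42 (edgeR adjusted p = 2.63e-38). *Fa2h* was at 6037, 4358 and 2671 CPM against 121, 24.6 and 47.4 CPM, a log2 difference of 6.29 ± 0.42 (edgeR adjusted p = 2.75e-46). *Elovl4* differed by 3.86 ± 0.35 (edgeR adjusted p = 7.17e-26), from 2119, 1605 and 1235 CPM in other cells. Every library had the higher level of these 3 genes in sebaceous-list cells, and the ranges did not overlap. How many of all genes tested did the same was not counted. The very small p-values borrow the spread of all genes, and the fit with no library block gave adjusted p = 0.00244, 0.00377 and 0.00903. Counted once per cell, *Elovl4* had a log2 difference of -0.16 (edgeR adjusted p = 0.624), while *Cers4* (2.08) and *Fa2h* (1.95) still passed. Sebaceous-list cells held 69.9%, 84.3% and 70.6% of the *Cers4* counts and 79.8%, 89.4% and 78.6% of the *Fa2h* counts of the 3 libraries. They held 61.0%, 53.2% and 28.8% of the *Elovl4* counts. In the *Vdr* cKO-labelled library *Lor*-high cells held more of the *Elovl4* counts, at 37.2%, but were 656 cells against 115. Their *Elovl4* level was 1902 CPM against 1628 CPM over all cells of that library, and sebaceous-list cells were at 7646 CPM. The larger share of *Lor*-high cells is therefore not read as a higher level.

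Of the 5 genes higher in *Lor*-high cells, 1 passed as lower in sebaceous-list cells. It was *Alox12b*, at 8.69, 11.5 and 82.3 CPM in sebaceous-list cells against 190, 221 and 131 CPM in other cells, with a log2 difference of -3.19 ± 0.83 (edgeR adjusted p = 0.00342), which was lost without control 1 (adjusted p = 0.211) or control 2 (0.372). *Cers3* and *Pnpla1* had no count in sebaceous-list cells of either control, which by the same limit of 3 counts a library allows up to 2.17 and 2.31 CPM, and were at 67.5 and 26.4 CPM in those of the *Vdr* cKO-labelled library. *Lor* was at 1538, 870 and 7481 CPM in the sebaceous-list cells, so this class held more *Lor* in the *Vdr* cKO-labelled library, and its part in those values was not tested. The 6 genes other than *Alox12b*, *Cers4*, *Fa2h* and *Elovl4* did not pass edgeR's test, while DESeq2 called *Cers3* (adjusted p = 0.00134), *Pnpla1* (0.00222) and *Ugcg* (0.00969) lower in sebaceous-list cells.

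The cells richest in *Cers4*, the highest 5% of each library, were named by their leading genes. Among genes that reached 50 CPM, the 5 with the largest ratio to other cells in their lowest library were *Hsd3b6*, *Awat1*, *Soat1*, *Fa2h* and *Mgll*, with lowest log2 ratios of 5.39, 5.32, 4.90, 4.85 and 4.69. *Awat1*, a wax synthase, and *Soat1*, which esterifies cholesterol, are among the sebaceous markers. Of these 74, 83 and 132 cells, 23, 35 and 62 were sebaceous-list cells. *Mgll* and *Soat1*, a monoglyceride lipase and an acyltransferase, were also the genes most like *Cers4* and *Fa2h* across cells, with a Pearson r of 0.40 and 0.38 for *Cers4* and 0.39 and 0.40 for *Fa2h* as the mean of 3 libraries, over 2990 genes compared. Depth and capture are shared by all genes of a cell, and for the other 8 genes the highest such r was 0.21, too weak to name a partner.

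Over all cells of a library, *Elovl4* was at 5032 and 3273 CPM in the controls and at 1628 CPM in the *Vdr* cKO-labelled library. That library was 0.324 and 0.497 of controls 1 and 2, the second just past the 2-fold limit, and the log2 fold over the mean of the controls was -1.35, where the controls differed by 0.62. With 1 *Vdr* cKO-labelled library there is no test between genotypes. Of 3919 genes with at least 50 CPM, 4.06% were over 2-fold higher and 1.2% over 2-fold lower than both controls, and of the 10 genes none was higher and 1 lower. With control 1 in place of the *Vdr* cKO-labelled library, 41 of these genes were higher and 30 lower than both other libraries, among them 1 of the 10 genes, *Fa2h*. With control 2 in its place 9 were higher and 65 lower, and none of the 10 was among them.

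In sebaceous-list cells *Elovl4* was at 41778 and 38436 CPM in the controls and 7646 CPM in the *Vdr* cKO-labelled library. The median cell of the class had 5832, 3070 and 713 CPM, and the mean over cells was 16924, 18658 and 5487 CPM. With 1 limit of 13461 CPM of sebaceous markers for all libraries, the levels were 40615, 40086 and 7989 CPM, and in the highest 5% of cells by *Cers4* they were 40435, 34430 and 6714 CPM. In sebaceous-list cells *Fa2h* was at 6037, 4358 and 2671 CPM and *Cers4* at 3530, 3830 and 3047 CPM. The median cell had 158, 1293 and 770 CPM of *Fa2h* and 0, 1175 and 2141 CPM of *Cers4*, and the mean over cells of *Cers4* was 2197, 2861 and 3573 CPM. For *Cers4* the order of the libraries thus turned between summed counts and cells, and no direction is read for either gene. The sebaceous markers summed to 43554, 45816 and 20929 CPM in the same cells, so these markers were also lower in the *Vdr* cKO-labelled library, and their part in the *Elovl4* difference was not tested. In summed counts of all cells outside the sebaceous list *Elovl4* was at 2119, 1605 and 1235 CPM and not 2-fold apart. The median cell there had 1408, 717 and 250 CPM. A median depends on how many cells have no count, and *Elovl4* was detected in 75.2%, 71.5% and 57.0% of these cells. The medians of other genes were not compared, so no call is read from this one. The mean over these cells was 2700, 1660 and 956 CPM. In summed counts of *Lor*-high cells the *Vdr* cKO-labelled library lay between the controls. By the mean over *Lor*-high cells it was lowest, at 2939, 1705 and 1305 CPM. In *Krt14*-high *Krt10*-low cells outside the sebaceous list *Elovl4* was at 1621 and 982 CPM in the controls and 277 CPM in the *Vdr* cKO-labelled library, where *Lor* (4301, 4145 and 1976 CPM) and *Krt10* (12572, 7395 and 3959 CPM) were also lower, and the part of that and of the unequal class limits in the difference was not tested.

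**Figure D3:**
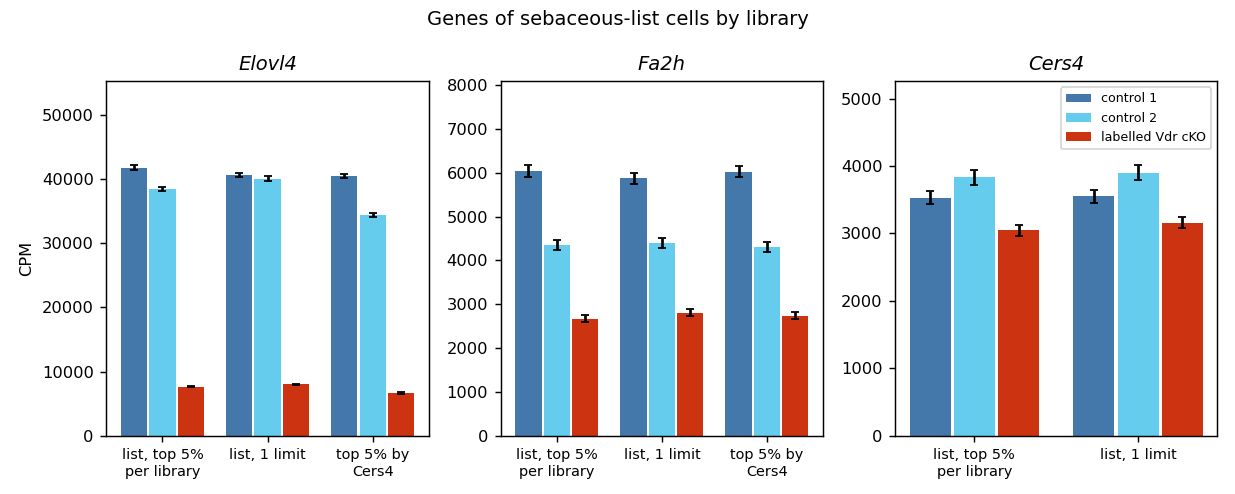
CPM of *Elovl4*, *Fa2h* and *Cers4* in 3 choices of cells rich in sebaceous markers or in *Cers4*. They are the highest 5% by sebaceous markers in each library, cells over 1 limit for all libraries, and the highest 5% by *Cers4* (not drawn for *Cers4*, which chose them). Bars start at 0 and carry 95% Poisson intervals for counting error only. *Elovl4* is 7646 CPM in the *Vdr* cKO-labelled library against 41778 and 38436 CPM in the controls.

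Cells with the highest *Elovl4* levels were also fewer in the *Vdr* cKO-labelled library. Those with at least 20000 CPM numbered 37, 37 and 16, or 2.50% (95% Clopper-Pearson interval 1.77 to 3.43), 2.23% (1.58 to 3.06) and 0.610% (0.349 to 0.989) of the cells, and cells with at least 40000 CPM numbered 15, 15 and 2. Of the 37, 37 and 16 cells, 21, 28 and 12 were sebaceous-list cells. *Elovl4* was also widely detected, in 75.5%, 71.9% and 57.8% of all cells as deposited. After thinning to 1000 counts, which kept 1466, 1597 and 2562 cells, the shares were 60.8% (95% Clopper-Pearson interval 58.3 to 63.4), 50.7% (48.2 to 53.1) and 37.0% (35.1 to 38.9), and they were 66.4%, 49.1% and 45.6% in *Lor*-high cells, at median depths of 3762, 3459 and 3934.5 counts before thinning. The lowest share of the *Vdr* cKO-labelled library was in *Krt14*-high *Krt10*-low cells outside the sebaceous list, at 17.2%, where the controls had 49.1% and 35.3%. Free RNA can give such counts. In the 15, 28 and 54 antigen-presenting-list cells, chosen by immune markers, the thinned shares were 73.3% (95% Clopper-Pearson interval 44.9 to 92.2), 40.7% (22.4 to 61.2) and 31.5% (19.5 to 45.6), at median depths of 4585, 2928.5 and 4778.5 counts. Shares at or below these are not told apart from background, and the differences in detection between libraries are not read as expression. The class was not free of the other genes, so its shares are no measure of free RNA alone and set no floor. In the *Vdr* cKO-labelled library it had 158 CPM of *Pnpla1*, 371 CPM of *Alox12b* and 200 CPM of *Aloxe3*. *Lor*-high cells of that library were lower, at 61.5, 267 and 84.0 CPM, and the reason was not tested. For the remaining genes this class was not among the 2 highest of that library.

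The other 9 genes were found in few cells at that depth. *Abca12* was detected in 10.2%, 13.5% and 8.08% of all cells, *Alox12b* in 6.28%, 7.64% and 5.89%, *Cers4* in 9.69%, 5.76% and 8.94% and *Fa2h* in 12.8%, 5.76% and 5.66%. *Cers3*, *Aloxe3*, *Pnpla1*, *Ugcg* and *Sptlc2* were each in 1.30% to 4.18%. In sebaceous-list cells *Cers4* was detected in 45.2% (95% Clopper-Pearson interval 32.5 to 58.3), 53.7% (41.1 to 66) and 61.9% (52.3 to 70.9), against 8.82%, 3.58% and 8.41% of *Lor*-high cells, at median depths of 5574, 6463 and 5251 counts for the first class. *Alox12b* was detected in 8.26%, 14.6% and 12.4% of *Lor*-high cells and in 3.23%, 5.97% and 6.19% of sebaceous-list cells. *Cers4* and *Fa2h* were found together in 43, 36 and 57 cells, 2.37, 6.79 and 4.40 times the number given by their separate shares. The same ratio was 1.24, 1.18 and 1.11 for *Cers4* and *Elovl4*. It was 1.91, 1.87 and 2.07 for *Alox12b* and *Aloxe3*, in 6, 8 and 5 cells. For *Abca12* and *Alox12b* it was 0.96, 0.97 and 2.21.

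Pooled levels of the other 9 genes were within 2-fold of at least 1 control. *Abca12* was at 244, 282 and 152 CPM and *Alox12b* at 176, 212 and 128 CPM, with the *Vdr* cKO-labelled library lowest for both, as it was for *Cers3* (54.6, 71.8 and 47.8 CPM), *Aloxe3* (87.2, 56.8 and 45.3 CPM), *Sptlc2* (62.2, 57.0 and 39.5 CPM) and *Pnpla1* (48.5, 52.2 and 36.9 CPM). *Fa2h* was at 556, 221 and 208 CPM, with control 1 apart from both other libraries. *Cers4* was at 371, 206 and 264 CPM and *Ugcg* at 55.8, 63.0 and 63.8 CPM. In all, 9 of the 10 log2 folds were below 0, with a median of -0.59, where 49.8% of the tested genes were below 0 with a median of 0.0017. Beside them, 12 granular markers summed to 26528, 24750 and 20651 CPM and 9 spinous markers to 97127, 112763 and 73364 CPM, lowest in the *Vdr* cKO-labelled library, and their part in the folds was not tested. The counts lie in few cells, since 50% of the *Cers4* counts were in 8, 6 and 22 cells and 50% of the *Fa2h* counts in 5, 6 and 10 cells. For *Elovl4*, 50% of the counts were in 10, 19 and 60 cells, and the top cell held 9.41%, 9.41% and 4.79%. The part of these few cells in its pooled call was not tested. Without the 10 cells with the most counts of each gene, *Elovl4* was no longer apart and the median of the 10 genes was -0.23, while that of all genes was 0.36. The same number of cells was taken from libraries of unequal size. Of all genes 323 were then higher and 11 lower, against 159 and 47 with all cells. The lost call of *Elovl4* is therefore not read.

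**Figure D4:**
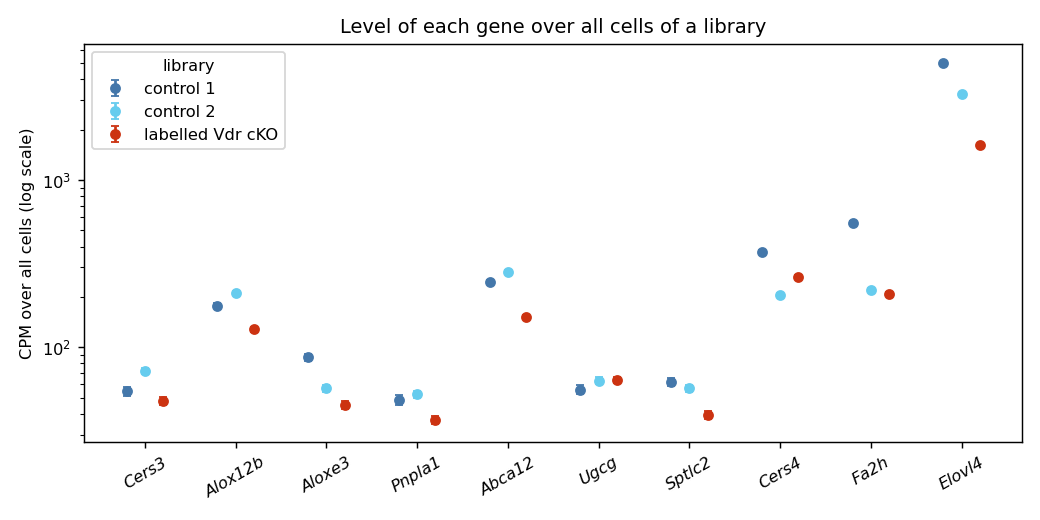
CPM of the 10 genes over all cells of each library, on a log axis, with 95% Poisson intervals for counting error only. *Elovl4* is at 5032 and 3273 CPM in the controls and 1628 CPM in the *Vdr* cKO-labelled library, and *Fa2h* is highest in control 1.

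Other genes of the same pathways were counted from lists of 77 genes, 74 of them in the files. In *Lor*-high against *Krt14*-high *Krt10*-low cells, 19 of 65 tested were higher and 10 lower by edgeR, where 3.93% and 1.43% of all genes were. Without sebaceous-list cells 19 of 65 were higher and 0 lower, where 3.75% and 1.23% of all genes were. In sebaceous-list cells, 16 of 68 were higher and 11 lower, where 2.92% and 3.3% of all genes were. The lists include the 10 genes, and no test was made of a list.

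Of 13 fatty acid elongation genes tested, *Elovl4* included, 9 were higher and 2 lower in sebaceous-list cells. The elongases *Elovl5* (log2 difference 5.95, edgeR adjusted p = 2.84e-41) and *Elovl6* (5.14, 3.40e-41) and the ketoacyl reductase *Hsd17b12* (4.14, 5.95e-24) were among the higher ones. *Elovl1*, an elongase for saturated very long fatty acids, was lower there by edgeR (-1.85, 5.45e-05), though not by DESeq2, and higher in *Lor*-high cells (3.51, 4.94e-05). *Elovl5* was the only elongation gene besides *Elovl4* over 2-fold lower in the *Vdr* cKO-labelled library, at 98.6 CPM against 531 and 300 CPM.

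Of 8 lipoxygenase pathway genes tested, 5 were higher and none lower in *Lor*-high cells, and 2 of the 5 were *Alox12b* and *Aloxe3*. The other 3 were *Sdr9c7* (log2 difference 5.06, edgeR adjusted p = 0.000517), a dehydrogenase of the oxidised acylceramide, *Nipal4* (4.44, 0.00102) and *Tgm1* (4.27, 0.00331), the transglutaminase of the cornified envelope. In sebaceous-list cells 3 of 10 were lower and none higher. Of the genes for glucosylceramide, sphingomyelin and transport, 3 of 11 were higher in *Lor*-high cells, namely *Abca12*, *Smpd3* (5.53, 7.16e-05), a sphingomyelinase, and *Gltp* (2.55, 0.000428), a glycolipid transfer protein. *Psap*, the precursor of saposins, was the only listed gene over 2-fold higher in the *Vdr* cKO-labelled library, at 111 CPM against 53.0 and 54.0 CPM. The list for ceramide breakdown, which also holds lipases and a phospholipase, had 6 of 13 genes higher and 1 lower in *Lor*-high cells. The lipase-family gene *Lipn* (8.12, 0.000748) had the largest difference. Outside the lipases and the phospholipase, *Asah2* (3.71, 0.00078) and *Sphk1* (2.82, 0.0109) were higher and *Acer2* (-4.45, 0.0346) was lower. No direction is read for ceramide breakdown. Sphingoid base synthesis had none of 8 called by edgeR in that comparison, 1 at an unadjusted p under 0.05, and DESeq2 called 1 of them, *Sptlc2* (2.32, adjusted p = 0.0207). In edgeR's fit all genes tested had a median log2 difference of 0.15 and these 8 a median of 0.52. Acylceramide synthesis and omega-hydroxylation had 2 of 5 higher, *Pnpla1* and *Dgat2* (2.90, 0.000213).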

How the data were processed

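The data are 3 single-cell libraries of P18 dorsal skin. The deposited values are counts per gene and cell barcode, 1 matrix a library, made by the authors from reads with the build mm10 named in the submitters' processing notes; the aligner, annotation and rule for counting molecules are not given in the sources used here. They were treated as counts that can include PCR copies, so Poisson and Clopper-Pearson intervals cover counting error only.

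Cells had at least 200 genes and at most 20% mitochondrial counts, with 4190, 4492.5 and 4055 median counts. Their median genes were 377, 502 and 688.5, so the libraries differed in genes per cell at near counts. The part of that in the thinned shares was not tested. Doublets were not called or removed. Levels are CPM of summed counts. For a log2 fold between genotypes, 1 CPM was added and the *Vdr* cKO-labelled library was divided by the controls' mean. Genes reaching 50 CPM were counted when over 2-fold from both controls. Classes were cut per library at the percentiles given, and the genes that made a class got no test. Class sums were tested with edgeR 4.0.16 in R 4.3.3 (quasi-likelihood test, two-sided, TMM factors, filterByExpr, library as block, Benjamini-Hochberg). Shares of cells were taken after thinning to 1000 counts. Each library pooled mice, so p-values do not measure the spread between mice. They rest on the spread between 3 libraries, drawn for each gene towards that of all genes tested. Each SE is the absolute log2 difference divided by the square root of edgeR's F statistic, so it also borrows the spread of all genes.

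On simulated counts for 9677 genes, the *Lor*-high test called 22 of 100 genes changed 4-fold and 53 of 100 changed 16-fold, all in the right direction, with 5 of 9477 unchanged genes called. The sebaceous-list test over 11001 genes called 6 of 100 and 37 of 100, with 0 of 10801 unchanged genes called.

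The 10 genes and all lists were chosen with earlier results of these data known. Pathway genes are named when called in the *Lor*-high test or over 2-fold apart between libraries, and up to 5 a list. *Elovl5*, *Elovl6* and *Hsd17b12* meet this rule, and their values in sebaceous-list cells are given beside it. Gene positions are from GENCODE M21 of GRCm38. The RefSeq starts used for the promoter windows differ from these positions for *Cers4*, *Ugcg*, *Alox12b* and *Elovl4*. The windows of *Cers4* and *Ugcg* lie within the gene positions given, and that of *Alox12b* lies partly within them. Alternatives were DESeq2 1.42.0 (its test and its size factors), other limits for cells, genes, classes and depth, no library block, and leaving out each library. Python 3.11.15, numpy 2.4.6, scipy 1.17.1, pandas 2.3.3 and matplotlib 3.10.9 did the rest.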

Additional observations from a re-analysis of the deposited data

Results flagged for a closer look

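The within-library log2 ratio of *Elovl4* in *Lor*-high over *Krt14*-high *Krt10*-low cells was -3.74 and -4.11 in controls 1 and 2 and 0.22 in the *Vdr* cKO-labelled library. It was singled out because both controls went one way and the other library the opposite way, a difference between genotypes that was not tested, with 1 library on one side. The class held 27, 39 and 44 sebaceous-list cells, and without them all 3 ratios were above 0.

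The log2 ratio of *Cers3* in sebaceous-list cells over other cells was -5.90 and -6.25 in the controls and 0.53 in the *Vdr* cKO-labelled library, by the same rule and also not tested. Both controls had 0 *Cers3* counts in these cells, so their ratios depend on the 1 CPM added. The cells of the *Vdr* cKO-labelled library held 128 counts.

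In the barcodes that were left out as cells, the *Vdr* cKO-labelled library had 389 CPM of *Cers4*, above the 255 and 152 CPM of the controls. These barcodes take no part in the comparisons.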

How the results depend on the processing

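No paired analysis was possible because the genotypes share 1 replicate number and the labels tie no mice across libraries; in the tests between classes the library is the block. Only 3 libraries, shallow cells and counts held by few cells limit what can be seen. In *Lor*-high against *Krt14*-high *Krt10*-low cells, 518 of 9674 genes, 5 of the 10 genes higher and 2 lower were called. DESeq2 called 1376 of 9674 genes with 7 of the 10 higher and 3 lower. The fit with no filter called 788 of 17614 (6 and 2), each gene counted once per cell 1016 of 5956 (7 and 2) and cells thinned to 1000 counts 193 of 4800. Thinning left 1 of the 10 genes higher, 1 was lower with all deposited barcodes or without shared barcodes, and 0 without sebaceous-list cells. *Elovl4* turned to 1.45 without sebaceous-list cells and to 0.36 with each gene counted once per cell. Leaving out 1 library gave 2 to 6 of the 10 genes higher and 191 to 529 genes called, the lowest without control 2. With no library block, *Abca12* was lost (edgeR adjusted p = 0.160) and *Elovl4* (-3.13, 0.0203) and *Ugcg* (2.66, 0.0366) were called. *Abca12* was called in 11 of 15 alternatives.

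In sebaceous-list against other cells, 684 of 10988 genes and 1 of the 10 genes lower were called. DESeq2 called 1262 genes and 4 of the 10 lower, where 821 of all genes were lower. The fit with no library block called 315 and 0, and thinning 204 and 0. Each gene counted once per cell gave 4 lower, where 540 of 7735 genes were. The highest 2% of cells gave 2 lower, where 300 of 10678 genes were. Once per cell *Elovl4* turned to -0.16, and thinned *Sptlc2* turned to 0.075. Leaving out 1 library gave 0 to 2 of the 10 genes lower and 291 to 618 genes called. *Cers4* and *Fa2h* were called in all 14 alternatives and *Elovl4* in 13.

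Between genotypes, 206 of 3919 genes were apart, and 1 of the 10 genes, *Elovl4*, was lower. The count was 936 of 8806 genes with a minimum of 10 CPM, 5866 of 19806 with none and 567 of 3919 at 1.5-fold. The last gave 2 of the 10 lower, where 202 of all genes were. The mean of each cell's CPM gave 2 lower, where 76 of 4112 genes were. With each gene counted once per cell 0 were lower, where 40 of 5765 genes were. Within *Lor*-high cells 379 of 3971 genes and 0 of the 10 were apart, *Elovl4* being at 0.047. Within *Krt14*-high *Krt10*-low cells 1209 of 5222 genes were apart, 520 of them lower, and 4 of the 10 were lower. In sebaceous-list cells 1456 of 5186 genes were apart, 976 higher and 480 lower, and of the 10 genes 2 were higher and 2 lower. Over 1 sebaceous limit it was 1451 of 5166, 2 and 2, and in the highest 5% by *Cers4* 1497 of 5244, 2 and 2. With so many of all genes apart, nothing is read from these counts of the 10. Outside sebaceous-list cells 0 of the 10 were lower, where 42 of 3885 genes were. Without the 10 most loaded cells 0 of the 10 were lower, with 334 of 2936 genes apart, 323 of them higher and 11 lower. Leaving out a control gave 1 to 2 lower and 356 to 399 genes. The causes were not tested.

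Leaving out sebaceous-list cells, the classes of sebaceous-list and *Cers4*-high cells between genotypes, and leaving out the most loaded cells were chosen after seeing the data.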
